A study of Mus musculus with 14 samples.

Results

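The genes described here are 38 genes of DNA replication and S phase, measured in mouse macrophages with and without a TFEB transgene and with and without tumour material. They were taken by name, and a probe was given to a gene when its RefSeq accession belonged to that gene. All 38 had a probe on the array. Of these, 34 entered the tests, among 15842 genes tested in all, 10978 of them with a symbol. To be tested, a probe had to stand well above background on each array of some group. Orc1, Cdc6, Exo1 and Ccne2 did not reach that and have no test. Of the 38, 25 passed in all 4 groups, and Cdc45, Pola1 and Tk1 passed only through transgenic control (transgenic cells in control medium).

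Before S phase, the origin recognition complex, Cdc6 and Cdt1 load the ring-shaped MCM helicase onto origins, and Mcm10, Cdc45 and the GINS complex then switch it on. Polymerases and primase copy the strands, the sliding clamp PCNA holds them on the template, and enzymes of the nucleotide supply and of histone deposition keep pace. Many of these genes are targets of E2F transcription factors, which RB family proteins hold in check until cyclin-dependent kinases act. Macrophages grown from bone marrow divide in response to M-CSF, and activation by inflammatory stimuli is known to slow that division. In RNA from a whole culture, fewer cells in S phase and less of a transcript per cell cannot be told apart.

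The macrophages were grown with M-CSF over 1 week from the marrow of female C57BL/6 mice aged 8 weeks, then replated and treated for 24 h. All 4 groups carried LysM-Double-Cre, a Cre recombinase driven by the lysozyme promoter, which is active in macrophages and also in granulocytes and their precursors. Wild-type means that Cre without the TFEB transgene, and transgenic means that Cre with it. TFEB is a transcription factor best known for driving genes of lysosomes and autophagy. Control means DMEM only, and tumour material means DMEM with serum-free medium exposed to EO771 mammary tumour cells and with tumour lysate. The labels number the replicates up to 3 and do not say whether each is a separate mouse or culture, so p-values measure the spread between these samples, which may be technical. Used here were 3 wild-type control, 3 wild-type tumour, 3 transgenic control and 2 transgenic tumour replicates on 14 one-colour arrays. Transgenic tumour replicate 1 is not analysed here, and arrays whose title adds -2 to a replicate number were taken as further arrays of that replicate.

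Between 35.5% and 40.2% of the spots were well above background on an array, and none was saturated. Transgenic control replicate 1 stood apart. Over the genes tested it correlated with the other replicates of its group at 0.957 and 0.959, while those correlated with each other at 0.981. Arrays within the other groups correlated at 0.979 to 0.994. It and transgenic control replicate 2, with the repeat array of transgenic tumour replicate 3, lay in column 4 of their slides, where the scanner software's spatial correction was larger (0.253 to 0.331 against 0.0964 to 0.126 elsewhere). No wild-type array lay in column 4. Within slide 1, genotype and column therefore cannot be told apart. Arrays of transgenic tumour were on slide 2 only. None of 12 macrophage markers was below background on every array, and the lowest log2 level of Adgre1 and Csf1r in a replicate was 7.49, where 0 is the 75th percentile of the array. The summed signal of the macrophage markers was 2250 to 2770 times that percentile in wild-type control, 1880 to 2160 in transgenic control, 2780 to 3000 in wild-type tumour and 2430 to 2520 in transgenic tumour, with no overlap between genotypes in either medium. Of the 11 tested, 3 were called lower and 0 higher in transgenic control (Itgam, Cd14 and C1qa). In transgenic tumour 4 were called lower and 0 higher. Of all genes tested, 5.33% were called lower in transgenic control and 2.57% in transgenic tumour. All 6 epithelial markers, including Epcam and Krt8, were below background on every array, as were 5 of 8 erythroid markers. The summed signal of 8 fibroblast markers was 21.6, 1.52 and 23.3 in wild-type control replicates 1, 2 and 3, 10, 1.02 and 4.40 in transgenic control, 33.7 to 44.1 in wild-type tumour and 7.97 to 9.03 in transgenic tumour. Of the 5 tested, Lum and Dcn were called higher with tumour material in wild-type cells, and Col3a1 lower in transgenic control. The summed signal of 11 markers of neutrophils and their precursors was 244 to 263 times the 75th percentile of the array in wild-type control, 601, 184 and 203 in transgenic control replicates 1, 2 and 3, 93.4 to 122 in wild-type tumour and 59.3 to 70.1 in transgenic tumour. Mpo, a granule enzyme of those precursors, was 2.63 ± 0.37 (SE) higher in transgenic control on the log2 scale (adjusted p = 0.00138), and 4 of the 11 markers were called higher there and 1 lower. Of all genes tested, 3.62% were called higher there and 5.33% lower. Without transgenic control replicate 1 the marker counts were 3 higher and 4 lower, with Camp, Ltf and Ngp joining the lower ones. In that fit 7.46% of all genes were called higher and 9.72% lower. The mouse Tfeb probe differed by 0.31 ± 0.13 between genotypes in control medium (adjusted p = 0.167) and by 0.69 ± 0.16 with tumour material (adjusted p = 0.0266, a call lost without 6 of the 11 replicates), and no source used here says whether that probe detects the transgene.

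In control medium, replication genes were higher in transgenic macrophages. Of the 38, 16 passed the test as higher and 0 as lower, where 3.62% of all genes tested were called higher and 5.33% lower. The median log2 difference over the 34 genes tested was 0.79, against -0.03 over all genes, and the estimates ran from -0.13 to 2.87. The estimate was above 0 for 33 of the 34. Of the 16, 14 had also passed the filter on dim probes in wild-type control, while Tk1 passed it only through transgenic control, the group where it was high. Among the 14 the largest differences were in ribonucleotide reductase (Rrm2), the hemimethyl-CpG reader Uhrf1, the helicase activator Mcm10 and the leading-strand polymerase Pole. No replicate of transgenic control overlapped wild-type control for any of the 16. Because the test on these same values picked the 16, that separation adds no support. Tests are from one limma model of all arrays with Benjamini-Hochberg adjustment over all genes and a threshold of 0.05, and differences are given with their standard error. At an unadjusted p under 0.05, 22 of the 38 were higher and 0 lower, where 10.7% of all genes were higher and 14.5% lower. Without the filter on dim probes, which adjusts over more genes, 13 of the 38 were called higher. The share of all genes called without the filter is not given here.

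The 3 transgenic control replicates were unlike. Relative to the wild-type control mean, the median gene stood at 0.33 in replicate 1, 1.17 in replicate 2 and 1.13 in replicate 3. Wild-type control replicates lay between -0.12 and 0.12 on the same measure, below all 3 transgenic ones. The summed signal of 10 markers of blood progenitors was 4.05 to 5.23 times the 75th percentile of the array in wild-type control and 6.75, 15.8 and 15.2 in transgenic control, with Flt3 and Hlf below background on every array. That of 10 B and T cell markers was 10.2 to 10.4 and 16.8, 24.3 and 23.7, with Cd79a, Ebf1, Pax5, Cd3g and Cd8a below background on every array. In transgenic control 1 of 6 progenitor and 1 of 4 B and T cell markers tested were called higher and 0 lower. Of all genes tested, 3.62% were called higher there. Without the filter on dim probes, 3 of 10 estimates were above 0 in each list, with medians of -0.2 and -0.34. The sums thus do not stand for most of the markers. Within transgenic control both sums were lowest in replicate 1, while the neutrophil sum was highest there. In the tumour groups the progenitor sum was 4.32 to 5.73 in wild-type and 8.65 to 9.21 in transgenic cells, the latter above transgenic control replicate 1. The part of any of these cell types in the results was not tested. Among the 16 called genes replicate 1 was the lowest of its group for 15, and replicate 2 the highest for 13. Without replicate 1, 22 genes were called higher, including all 16, where 7.46% of all genes were. The 6 that joined were Mcm2, Mcm3, Mcm6, Cdt1, Rrm1 and Ccne1. Without wild-type control replicate 3, 5 of the 16 stayed called (Mcm7, Mcm10, Prim1, Rrm2 and Chaf1a). Without transgenic tumour replicate 3, which enters through the shared spread, 10 did. The shares of all genes called in those fits are not given here. Mcm7, Mcm10, Prim1 and Rrm2 stayed called whichever of the 11 replicates was left out. Within slide 1, where the transgenic control arrays and no wild-type array lay in column 4, the median difference was 0.68 and 8 genes were called. Within slide 2, which held 1 array of each control group, the median difference was 1.28.

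**Figure D1:**
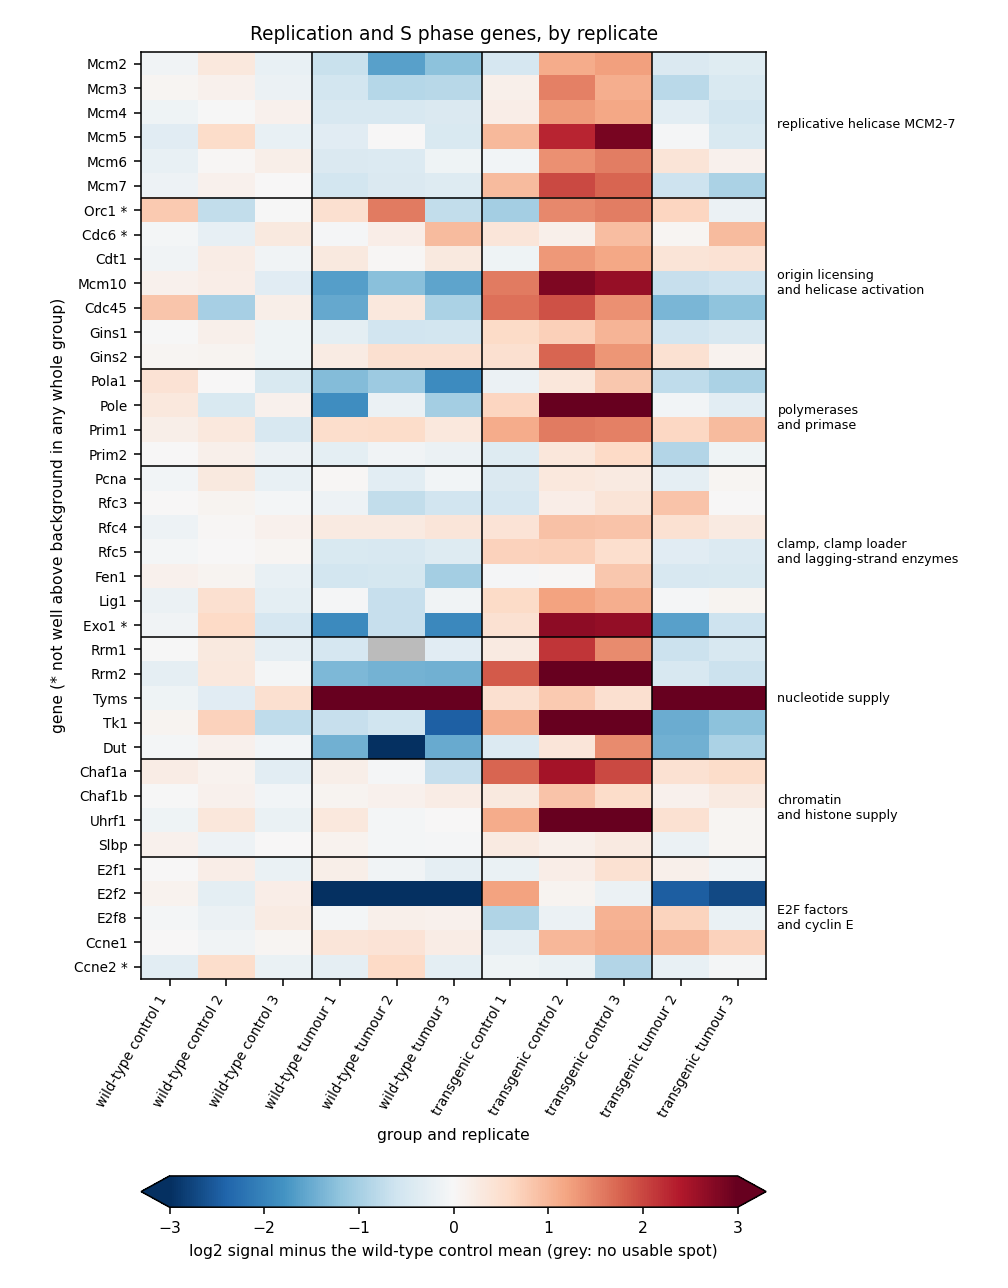
Each cell is the log2 signal of 1 gene (rows, by role) in 1 replicate (columns, by group) minus the wild-type control mean of that gene; an asterisk marks the 4 genes not tested, and grey marks the replicate of Rrm1 with no usable spot. The columns of transgenic control replicates 2 and 3 are red in most rows and replicate 1 is paler, while Tyms is red and E2f2 blue in all 5 tumour replicates.

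**Figure D2:**
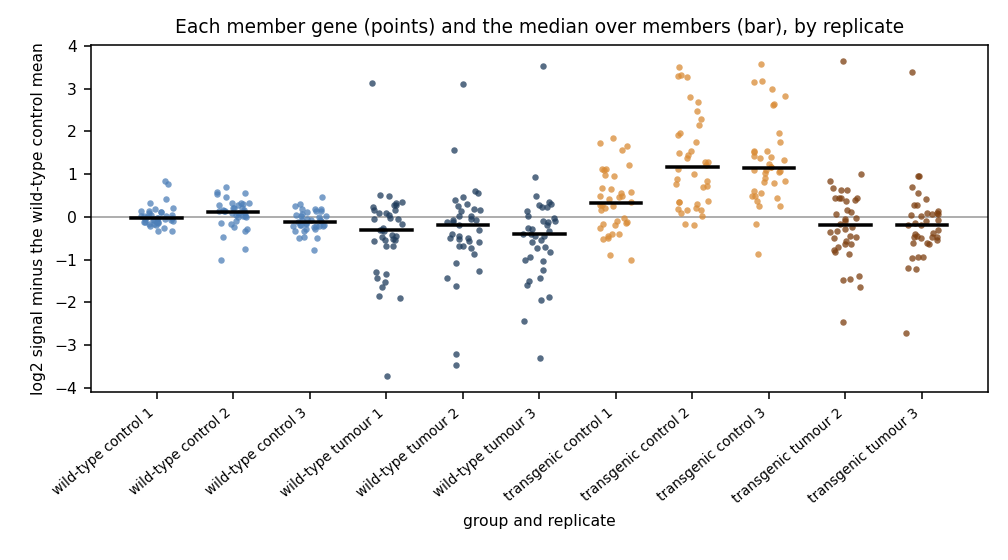
Points are the genes' log2 signal minus their wild-type control mean, and the bar is the median over the genes, for each of the 11 replicates. The bars stand at 0.33, 1.17 and 1.13 in transgenic control, between -0.12 and 0.12 in wild-type control, and between -0.39 and -0.18 in the 5 tumour replicates.

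E2F factors bind sites close to the start of many of these genes, and the promoter sequences show where such letters stand. RefSeq windows on build GRCm38.p6, each from 250 bases before to 50 bases after a start, were on hand for 31 of the 38 genes (37 windows). The words TTTCCCGC, TTTCGCGC, TTTGCCGC and TTTGGCGC were searched on both strands. They stood in 12 of the 37 windows (32.4%), against 2.26% of all 32851 windows of the table and 3.81% of those of genes tested here. By gene, 4 of the 12 with a window that were called higher in transgenic control held a word, and 8 of the 19 that were not. CCAAT, the word bound by NF-Y, stood on either strand in 59.5% of the 37 windows against 37.4% of all windows and of those of genes tested. The late cell-cycle word TTTGAA stood in 13.5%, against 17.9% of all windows and 12.2% of those of genes tested. Promoters of 6 genes are shown for the 200 bases before the start, in lower case with E2F words in capitals. Mcm5, Mcm7 and Mcm6 show helicase subunits with such a word. Mcm7 has a further start with a window of its own, not shown, that holds no E2F word. In Mcm5 and Mcm6 words on opposite strands overlap, and Mcm6 holds 3 words in all. Orc1 shows a word in a gene below background on most arrays. Rrm2 and Mcm10 show 2 of the largest rises with none of these words in the stretch.
Mcm5: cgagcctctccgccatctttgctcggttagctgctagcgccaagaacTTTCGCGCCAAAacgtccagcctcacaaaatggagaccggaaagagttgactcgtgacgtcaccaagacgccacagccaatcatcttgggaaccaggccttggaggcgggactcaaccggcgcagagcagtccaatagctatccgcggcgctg
Mcm7: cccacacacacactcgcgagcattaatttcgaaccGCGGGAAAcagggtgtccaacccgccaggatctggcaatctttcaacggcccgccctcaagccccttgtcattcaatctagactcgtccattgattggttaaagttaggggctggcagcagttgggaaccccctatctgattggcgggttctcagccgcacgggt
Mcm6: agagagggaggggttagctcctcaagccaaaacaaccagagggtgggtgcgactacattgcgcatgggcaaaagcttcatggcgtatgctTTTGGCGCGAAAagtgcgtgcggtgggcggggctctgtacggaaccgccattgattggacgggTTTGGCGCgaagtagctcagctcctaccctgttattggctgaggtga
Orc1: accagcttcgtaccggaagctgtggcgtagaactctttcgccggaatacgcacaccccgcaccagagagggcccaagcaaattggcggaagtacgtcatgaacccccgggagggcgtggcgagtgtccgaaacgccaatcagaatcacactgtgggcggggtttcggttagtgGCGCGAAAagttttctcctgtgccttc
Rrm2: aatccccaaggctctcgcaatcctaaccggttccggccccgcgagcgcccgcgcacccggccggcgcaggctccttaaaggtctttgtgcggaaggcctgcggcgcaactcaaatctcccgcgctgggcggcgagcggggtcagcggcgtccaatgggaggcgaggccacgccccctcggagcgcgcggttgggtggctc
Mcm10: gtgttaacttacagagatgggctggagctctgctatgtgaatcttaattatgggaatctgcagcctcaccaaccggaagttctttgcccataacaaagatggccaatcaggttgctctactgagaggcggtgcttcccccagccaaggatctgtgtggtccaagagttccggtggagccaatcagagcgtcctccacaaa
The windows were Mcm5 chr8:75109309-75109508, Mcm7 chr5:138171884-138172083, Mcm6 chr1:128359706-128359905, Orc1 chr4:108579254-108579453, Rrm2 chr12:24708054-24708253 and Mcm10 chr2:5012792-5012991, with Mcm7, Mcm6 and Mcm10 on the minus strand. A match describes these letters only.

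The MCM2-7 ring is the motor that unwinds DNA at the fork, and its 6 subunits work as one complex. In control medium 3 of the 6 were called higher in transgenic cells (Mcm4, Mcm5 and Mcm7), the estimates ran from 0.64 to 2.08, and the median was 0.91. Signals are given as log2 of the scaled signal, where 0 is the 75th percentile of the array. Mcm7, a core subunit, read 3.21, 3.50 and 3.39 in wild-type control, 2.83, 2.93 and 2.98 in wild-type tumour, 4.32, 5.34 and 5.12 in transgenic control, and 2.74 and 2.41 in transgenic tumour. Transgenic control was highest with no overlap, and both tumour groups lay below both control groups. The difference between genotypes in control medium was 1.54 ± 0.24 (adjusted p = 0.00234), 1.49 within slide 1 and 1.66 within slide 2. Tumour material lowered Mcm7 by 2.51 ± 0.29 in transgenic cells (adjusted p = 8.29e-05), and in wild-type cells the difference was -0.44 ± 0.22 (adjusted p = 0.138).

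Mcm5, which closes the ring with Mcm2 at the gate through which DNA enters, read 0.74, 1.64 and 0.86 in wild-type control and 2.06, 3.37 and 3.92 in transgenic control. With tumour material it read 0.74, 1.09 and 0.63 in wild-type and 1.04 and 0.62 in transgenic cells. Transgenic control stood alone, and the other 3 groups overlapped. The genotype difference in control medium was 2.08 ± 0.38 (adjusted p = 0.00602), lost with wild-type control replicate 3 left out (adjusted p = 0.0985). The fall with tumour material in transgenic cells was -2.43 ± 0.46 (adjusted p = 0.00238), lost without transgenic tumour replicate 3 (adjusted p = 0.0783).

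Mcm2 and Mcm3 were the 2 subunits called lower with tumour material in wild-type cells, by -1.14 ± 0.35 (adjusted p = 0.0229) and -0.73 ± 0.26 (adjusted p = 0.039). The Mcm2 call was lost without 4 of the 11 replicates (adjusted p up to 0.143) and the Mcm3 call without 7 (adjusted p up to 0.193). Mcm2 read -1.18, -0.75 and -1.29 in wild-type control and -1.74, -2.69 and -2.31 with tumour material, where 2 of the 4 arrays were above background. In transgenic control it read -1.58, 0.05 and 0.16, so that replicate 1 lay below every wild-type control replicate and the groups overlapped, and in transgenic tumour -1.51 and -1.44. Mcm2 was the 1 subunit not called lower with tumour material in transgenic cells (-1.15 ± 0.46, adjusted p = 0.0929). Mcm3 read 2.29, 2.37 and 2.06 in wild-type control, 2.40, 3.74 and 3.33 in transgenic control, 1.68, 1.38 and 1.41 in wild-type tumour, and 1.43 and 1.79 in transgenic tumour. Its replicates in control medium did not overlap between genotypes, though replicate 1 of transgenic control was only just above the highest wild-type one (0.96 ± 0.27, adjusted p = 0.0511). Mcm4 differed by 0.84 ± 0.23 in control medium (adjusted p = 0.0423), a call lost in 9 of the 11 fits that leave out 1 replicate, and Mcm6 by 0.85 ± 0.28 (adjusted p = 0.0834). Across the ring, 5 of 6 subunits fell in transgenic cells with tumour material, with a median of -1.47, and 2 of 6 in wild-type cells, with a median of -0.47. Without transgenic control replicate 1, Mcm2, Mcm3 and Mcm6 were called higher in control medium too, at 1.26 ± 0.26, 1.41 ± 0.17 and 1.32 ± 0.15.

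Licensing and activation of the helicase involve 7 of the genes, of which Orc1 and Cdc6, both loaders of the ring, were not tested. Cdc6 was below background on every array, and Orc1 was above it on 2 of the 3 transgenic control arrays only. Of the 5 tested, Mcm10, Gins1 and Gins2 were called higher in transgenic control. Mcm10, which activates the loaded helicase, read -0.89, -0.82 and -1.35 in wild-type control and 0.55, 1.78 and 1.60 in transgenic control. With tumour material it read -2.67, -2.28 and -2.61 in wild-type cells, below background on all 4 arrays, and -1.72 and -1.64 in transgenic cells. The 4 groups did not overlap. The genotype difference was 2.39 ± 0.28 in control medium (adjusted p = 0.000403), with 2.23 within slide 1 and 2.79 within slide 2. Where a whole group was below background, its fold is given as a bound, against the lowest signal well above background on each array or the probe's own if higher. The bound uses group means without the model's slide term or an error. The adjusted p beside it is that of the fitted difference, which can be smaller. By this bound Mcm10 was at least 2.83-fold lower with tumour material in wild-type cells (fitted difference -1.45 ± 0.26, adjusted p = 0.00098). In transgenic cells it fell by 3.06 ± 0.34 (adjusted p = 5.85e-05). All of these Mcm10 calls held whichever replicate was left out.

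Gins1, a subunit of the GINS complex that travels with the helicase, read 0.81, 0.99 and 0.71 in wild-type control, 1.41, 1.55 and 1.85 in transgenic control, 0.53, 0.26 and 0.28 in wild-type tumour, and 0.26 and 0.34 in transgenic tumour. Each control group lay above its tumour group, and transgenic control above wild-type control. The differences were 0.80 ± 0.14 between genotypes in control medium (adjusted p = 0.00409), -0.47 ± 0.13 for tumour material in wild-type cells (adjusted p = 0.0119) and -1.29 ± 0.17 in transgenic cells (adjusted p = 0.000161). The first was lost with wild-type control replicate 3 left out (adjusted p = 0.0764) and the second without wild-type tumour replicate 3 (adjusted p = 0.135). Gins2, its partner, was 1.22 ± 0.26 higher in transgenic control (adjusted p = 0.013, lost without wild-type control replicate 3 at 0.138) and fell with tumour material in transgenic cells by 0.97 ± 0.31 (adjusted p = 0.0396, lost without 6 of the 11 replicates).

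Cdt1, the loading factor that geminin restrains, read 4.19, 4.52 and 4.20 in wild-type control, 4.16, 5.59 and 5.47 in transgenic control, 4.59, 4.33 and 4.59 in wild-type tumour, and 4.69 and 4.73 in transgenic tumour. Replicates 2 and 3 of transgenic control were above all others and replicate 1 was the lowest of the 11. The difference in control medium was 0.78 ± 0.27 (adjusted p = 0.0974), and Cdt1 was the only tested gene of this role not called lower with tumour material in transgenic cells (-0.47 ± 0.33, adjusted p = 0.331). Cdc45, which joins MCM and GINS in the active helicase, was above background on all 3 transgenic control arrays (-1.36, -1.10 and -1.63), on 1 of 4 wild-type control arrays, and on 0 of the tumour arrays. Cdc45 thus passed the filter only through transgenic control, the group where it was high. It was at least 3.19-fold lower with tumour material in transgenic cells (adjusted p = 0.00565), a call lost without transgenic tumour replicate 3 (adjusted p = 0.092). Between genotypes in control medium its difference was 1.60 ± 0.53 (adjusted p = 0.0837).

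Among polymerases and primase, Prim1 and Pole were called higher in transgenic control and Pola1 and Prim2 were not. Prim1, the subunit of primase that lays down RNA primers, read -0.15, -0.02 and -0.82 in wild-type control and 0.78, 1.22 and 1.18 in transgenic control, a difference of 1.53 ± 0.23 (adjusted p = 0.00163) with 1.28 within slide 1 and 2.13 within slide 2. It read 0.19, 0.23 and -0.02 in wild-type tumour and 0.30 and 0.62 in transgenic tumour. Both transgenic groups thus lay above wild-type control in Prim1, but wild-type tumour also lay at or above it. With tumour material the genotypes' difference of 0.64 ± 0.27 did not pass (adjusted p = 0.239). Neither response of Prim1 to tumour material passed, with 0.54 ± 0.21 in wild-type (adjusted p = 0.0583) and -0.35 ± 0.27 in transgenic cells (adjusted p = 0.397).

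Pole, the catalytic subunit of the leading-strand polymerase, read -1.08, -1.86 and -1.27 in wild-type control and -0.75, 2.12 and 1.60 in transgenic control. With tumour material it read -3.26, -1.58 and -2.43 in wild-type cells, above background on 2 of 4 arrays, and -1.49 and -1.71 in transgenic cells. Replicates 2 and 3 of transgenic control stood far above the rest. The difference in control medium was 2.31 ± 0.59 (adjusted p = 0.0314), lost without 7 of the 11 replicates (adjusted p up to 0.18), and the transgenic fall with tumour material was -3.00 ± 0.71 (adjusted p = 0.00917), lost without transgenic control replicate 3 or transgenic tumour replicate 3 (adjusted p up to 0.092). A further Pole probe was below background on every array and gave no second reading. Pola1, the polymerase that extends the primers, read -1.27, -1.68 and -2.16 in wild-type control and was below background on all arrays with tumour material. It was at least 2.14-fold lower there in wild-type cells (fitted difference -1.42 ± 0.30, adjusted p = 0.00291). In transgenic cells the fitted difference was -0.95 ± 0.40 and did not pass (adjusted p = 0.104). Pola1 in control medium differed by 0.46 ± 0.33 between genotypes (adjusted p = 0.41), with replicates of -1.87, -1.36 and -0.90 in transgenic control that overlapped wild-type control. Prim2, the large primase subunit, differed by 0.22 ± 0.24 (adjusted p = 0.625).

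The clamp, its loader and the lagging-strand enzymes make up another 7 of the genes. Of the 6 tested, Rfc4, Rfc5 and Lig1 were called higher in transgenic control, and the median was 0.48. Rfc4, a clamp loader subunit, read 2.05, 2.24 and 2.33 in wild-type control, 2.62, 3.10 and 3.06 in transgenic control, 2.48, 2.47 and 2.57 in wild-type tumour, and 2.66 and 2.49 in transgenic tumour. Its lowest values were those of wild-type control, with no overlap with any other group. The difference in control medium was 0.68 ± 0.13 (adjusted p = 0.00638), lost with wild-type control replicate 3 left out (adjusted p = 0.056). A further Rfc4 probe gave 0.60 against 0.72 in the simple difference of group means.

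Rfc5, also of the clamp loader, read 3.57, 3.63 and 3.68 in wild-type control, 4.31, 4.34 and 4.13 in transgenic control, 3.18, 3.14 and 3.24 in wild-type tumour, and 3.28 and 3.23 in transgenic tumour. Transgenic control lay above the other groups, with replicate 3 its lowest, and both tumour groups lay below both control groups. It was 0.63 ± 0.13 higher in transgenic control (adjusted p = 0.0132) and fell by 0.44 ± 0.12 in wild-type (adjusted p = 0.0145) and 0.97 ± 0.16 in transgenic cells (adjusted p = 0.00103). The first was lost with wild-type control replicate 3 left out (adjusted p = 0.0643), the second without wild-type control replicate 3 or wild-type tumour replicate 1 (adjusted p up to 0.0892). Lig1, the ligase that seals Okazaki fragments, was 1.02 ± 0.24 higher in transgenic control (adjusted p = 0.0202, lost without 4 of the 11 replicates).

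Pcna, the sliding clamp and a common marker of S phase, did not follow. It read 4.93, 5.30 and 4.79 in wild-type control, 4.57, 5.32 and 5.27 in transgenic control, 5.05, 4.70 and 4.92 in wild-type tumour, and 4.73 and 5.08 in transgenic tumour, so that all 4 groups overlapped. Its differences were 0.09 ± 0.21 between genotypes in control medium (adjusted p = 0.83), -0.06 ± 0.20 for tumour material in wild-type cells (adjusted p = 0.828) and -0.10 ± 0.26 in transgenic cells (adjusted p = 0.812). Fen1, the flap endonuclease of Okazaki fragments, fell in wild-type cells by 0.72 ± 0.22 (adjusted p = 0.0241), lost without 4 of the 11 replicates. Its estimate in transgenic cells was close, at -0.71 ± 0.29, but did not pass (adjusted p = 0.101). Between genotypes in control medium Fen1 differed by 0.33 ± 0.24 (adjusted p = 0.431). Rfc3, of the clamp loader, differed by 0.08 ± 0.34 there (adjusted p = 0.912). Exo1, an exonuclease of repair and replication, was untested. It read -2.44, -0.21 and -0.26 in transgenic control, above background on 2 of 3 arrays, and lay below background on all tumour arrays.

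Nucleotide supply covers 5 of the genes, of which Rrm2 and Tk1 were called higher in transgenic control. Rrm2, the subunit of ribonucleotide reductase made in S phase, read 0.89, 1.47 and 1.10 in wild-type control, -0.19, -0.27 and -0.28 in wild-type tumour, 3.00, 4.48 and 4.31 in transgenic control, and 0.66 and 0.51 in transgenic tumour. The 4 groups did not overlap, with transgenic control highest and wild-type tumour lowest. Rrm2 was 2.78 ± 0.30 higher in transgenic control (adjusted p = 0.000261), 2.60 within slide 1 and 3.16 within slide 2. With tumour material it fell by 1.40 ± 0.28 in wild-type (adjusted p = 0.0019) and 3.45 ± 0.36 in transgenic cells (adjusted p = 3.73e-05), and each of these 3 calls held whichever replicate was left out.

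Tk1, the thymidine kinase of the salvage pathway, read -1.58, -0.96 and -2.43 in wild-type control, above background on 2 of 4 arrays, and -0.57, 1.65 and 1.91 in transgenic control. All of its tumour arrays were below background. Its difference in control medium was 2.87 ± 0.67 (adjusted p = 0.0207), 2.21 within slide 1 and 4.31 within slide 2, and it passed the filter only through the group where it was high. By group means Tk1 was at least 14.2-fold lower with tumour material in transgenic cells. Its fitted difference was -3.67 ± 0.81 (adjusted p = 0.00605), a call lost without transgenic control replicate 3 (adjusted p = 0.131). The call in control medium was lost without wild-type control replicate 3, transgenic control replicate 2 or 3, or transgenic tumour replicate 3 (adjusted p up to 0.193).

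Tyms, thymidylate synthase, ran against the rest. It read -1.66, -1.85 and -1.05 in wild-type control and 1.61, 1.60 and 2.02 in wild-type tumour, a rise of 3.21 ± 0.18 (adjusted p = 1.12e-07). In transgenic cells it read -1.03, -0.74 and -1.04 in control and 2.14 and 1.88 with tumour material, a rise of 2.64 ± 0.24 (adjusted p = 9.99e-06). Control and tumour replicates were apart by more than 2 log2 units in either genotype, and both calls held whichever replicate was left out. Between genotypes the difference in control medium was 0.44 ± 0.19 (adjusted p = 0.184). Tyms rests on 1 probe.

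Dut, the dUTPase that keeps uracil out of DNA, fell in both genotypes. It read -0.86, -0.66 and -0.88 in wild-type control and -2.24, -4.00 and -2.31 in wild-type tumour, all below background there, and was at least 2.88-fold lower (adjusted p = 0.00254). In transgenic cells it read -1.21, -0.43 and 0.61 in control and -2.25 and -1.75 with tumour material, a difference of -1.93 ± 0.52 (adjusted p = 0.018) that was lost without transgenic control replicate 3 or either transgenic tumour replicate (adjusted p up to 0.201). The genotypes overlapped in control medium (0.43 ± 0.43, adjusted p = 0.584). Rrm1, the large reductase subunit, read -0.81, -0.50 and -1.07 in wild-type control, -0.52, 1.36 and 0.63 in transgenic control, -1.30 and -1.12 in wild-type tumour and -1.43 and -1.26 in transgenic tumour. Its spot on wild-type tumour replicate 2 was marked uneven and left out, so that n = 2 there. Rrm1 differed by 1.39 ± 0.44 between genotypes in control medium (adjusted p = 0.0798) and by -1.51 ± 0.54 for tumour material in transgenic cells (adjusted p = 0.0658).

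For chromatin and histone supply, Uhrf1, Chaf1a and Chaf1b were called higher in transgenic control and Slbp was not. Uhrf1, which brings the maintenance methyltransferase to newly copied DNA, read -0.08, 0.38 and -0.15 in wild-type control and 1.17, 3.33 and 3.23 in transgenic control, and between -0.02 and 0.50 in the 5 tumour replicates. Transgenic control was apart from all others, with replicate 1 nearest to them. The difference was 2.56 ± 0.43 (adjusted p = 0.00368), lost with wild-type control replicate 3 left out (adjusted p = 0.0678), and the fall with tumour material in transgenic cells was -2.42 ± 0.52 (adjusted p = 0.00539), lost without transgenic control replicate 3 or transgenic tumour replicate 3 (adjusted p up to 0.102). In wild-type cells the response was 0.12 ± 0.40 (adjusted p = 0.839). A dimmer Uhrf1 probe, above background on 1 of the 14 arrays, differed by 1.29 in the simple difference of means.

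Chaf1a, the large subunit of the assembly factor CAF-1, read -1.80, -1.92 and -2.34 in wild-type control, on 3 of 4 arrays above background, and -0.28, 0.47 and -0.05 in transgenic control. It read -1.85, -2.06 and -2.72 in wild-type tumour and -1.57 and -1.47 in transgenic tumour. Transgenic control lay above every other replicate, and replicate 1 was close to replicate 3. The difference in control medium was 2.15 ± 0.37 (adjusted p = 0.00393), lost without transgenic tumour replicate 3 (adjusted p = 0.0876). Chaf1b, the middle subunit, differed by 0.58 ± 0.14 (adjusted p = 0.025, lost without 4 replicates), and a further probe, also above background on all 14 arrays, gave 0.24 in the simple difference of means against 0.56. Slbp, which binds the stem-loop of histone mRNA, read 0.53, 0.26 and 0.42 in wild-type control, 0.67, 0.56 and 0.67 in transgenic control, and between 0.24 and 0.51 in the tumour replicates. Its control replicates did not overlap between genotypes, but the difference of 0.23 ± 0.12 did not pass (adjusted p = 0.231), and a further probe gave 0.07 in the simple difference of means.

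The E2F factors and cyclin E followed neither pattern as a group. None of the 4 tested was called in control medium, where 0 of 4 also reached an unadjusted p under 0.05. E2f2, an activating E2F, had the largest fall of all 38 genes in wild-type cells. It read 3.89, 3.49 and 3.97 in wild-type control and 0.05, 0.31 and 0.47 in wild-type tumour, and 4.99, 3.87 and 3.61 in transgenic control and 1.31 and 1.07 in transgenic tumour. Control and tumour replicates were far apart in either genotype, with falls of -3.51 ± 0.26 (adjusted p = 1.06e-06) and -2.95 ± 0.34 (adjusted p = 7.1e-05) that held whichever replicate was left out. In control medium the genotypes overlapped (0.34 ± 0.28, adjusted p = 0.483), and here replicate 1 of transgenic control was the highest.

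E2f1, another activator, ran between 2.04 and 2.75 in all 11 replicates, with a difference of 0.20 ± 0.18 in control medium (adjusted p = 0.553). E2f8, a repressor of E2F targets, read 1.27, 1.17 and 1.59 in wild-type control and 0.44, 1.17 and 2.39 in transgenic control, the widest spread of this role (-0.13 ± 0.35, adjusted p = 0.856). The E2f8 difference turned to 0.51 with another background correction (normexp, adjusted p = 0.0386). It turned to 0.77 without the arrays in slide column 4, which left transgenic control replicate 3 alone in its group. Ccne1, cyclin E1, read 2.23, 2.11 and 2.28 in wild-type control, 1.95, 3.21 and 3.29 in transgenic control, 2.57, 2.61 and 2.44 in wild-type tumour, and 3.21 and 2.90 in transgenic tumour. Replicate 1 of transgenic control was below every other replicate, and the difference of 0.57 ± 0.28 did not pass (adjusted p = 0.224). Without that replicate the Ccne1 difference was 1.01 ± 0.17 (adjusted p = 0.00219). Ccne2 was below background on every array.

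**Figure D3:**
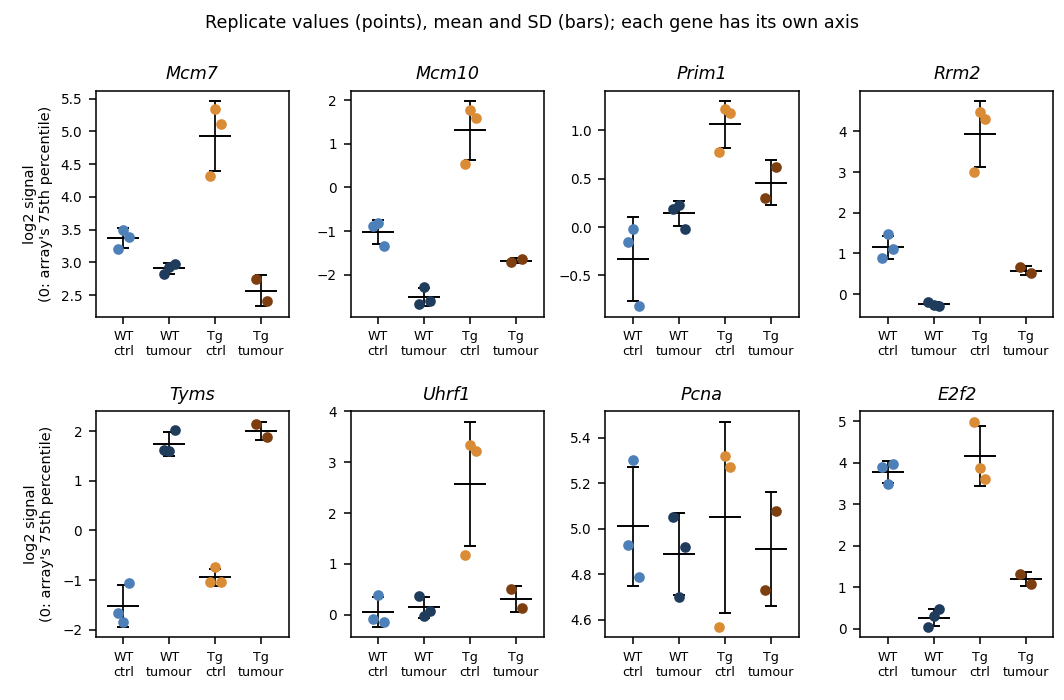
Log2 signal of 8 genes in each replicate (points), with group mean and SD (bars), by genotype (WT wild-type, Tg transgenic) and medium; each gene has its own axis, and 0 is the 75th percentile of the array. Mcm7, Mcm10, Prim1, Rrm2 and Uhrf1 are highest in transgenic control, Tyms is high and E2f2 low in both tumour groups, and Pcna overlaps in all groups.

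Tumour material lowered some replication genes in each genotype. In wild-type cells 10 of the 38 were called lower and 1 higher, where 16.8% of all genes were called lower and 23.2% higher. The 10 were Mcm2, Mcm3, Mcm10, Gins1, Pola1, Rfc5, Fen1, Rrm2, Dut and E2f2, and the median over those tested was -0.30, against 0.05 over all genes. Transgenic cells had 19 called lower and 1 higher, where 10.2% of all genes were called lower and 15.2% higher, and a median of -1.02 against 0.06. Tyms was the gene called higher in either genotype. In wild-type cells 5 of the 10 falls held whichever replicate was left out (Mcm10, Pola1, Rrm2, Dut and E2f2), and in transgenic cells 7 of the 19 did (Mcm4, Mcm7, Mcm10, Gins1, Rfc5, Rrm2 and E2f2). Without wild-type tumour replicate 3, 6 of the 10 stayed called, and without transgenic control replicate 3 or transgenic tumour replicate 3, 9 of the 19 did. Shares of all genes called are not given for those fits. Without transgenic control replicate 1, 15 genes were called lower in wild-type and 26 in transgenic cells, where 21.8% and 14.3% of all genes were. The genes called higher in wild-type cells then went from 1 to 5, with Cdt1, Gins2, Prim1 and Rfc4 joining Tyms, where 28.7% of all genes were. Both genotypes' responses use their own control group, and the transgenic control group that had been highest in these genes is the baseline of the transgenic response. Within slide 2, the only slide with transgenic tumour arrays, the median was -0.24 in wild-type and -1.39 in transgenic cells.

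With tumour material present, none of the 38 genes passed the test between genotypes. Of the 38, 0 were called higher and 0 lower in transgenic against wild-type tumour, where 2.01% of all genes were called higher and 2.57% lower by limma. At an unadjusted p under 0.05, 5 were higher (Mcm10, Prim1, Pola1, Rfc3 and E2f2) and 0 lower, where 8.58% of all genes were higher and 9.73% lower. The median over those tested was 0.13, with a range from -0.53 to 1.12. The 2 transgenic tumour replicates stood at -0.20 and -0.19 against the wild-type control mean in the median gene, and the 3 wild-type tumour replicates at -0.30, -0.18 and -0.39. Mcm10, with means of -2.52 in wild-type and -1.68 in transgenic tumour, was at least 1.79-fold higher in transgenic cells by these means. Its fitted difference was 0.77 ± 0.34 (adjusted p = 0.251). Transgenic control replicate 1 enters this comparison through the shared spread and the model's slide term, since transgenic tumour was on slide 2 only. Without it, 5 genes were called higher (Mcm10, Pola1, Rfc3, Rrm2 and E2f2), where 6.12% of all genes were. The Mcm10 estimate then moved from 0.77 to 0.97. The largest estimate, that of Rfc3, was 1.12 ± 0.41 (adjusted p = 0.165).

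**Figure D4:**
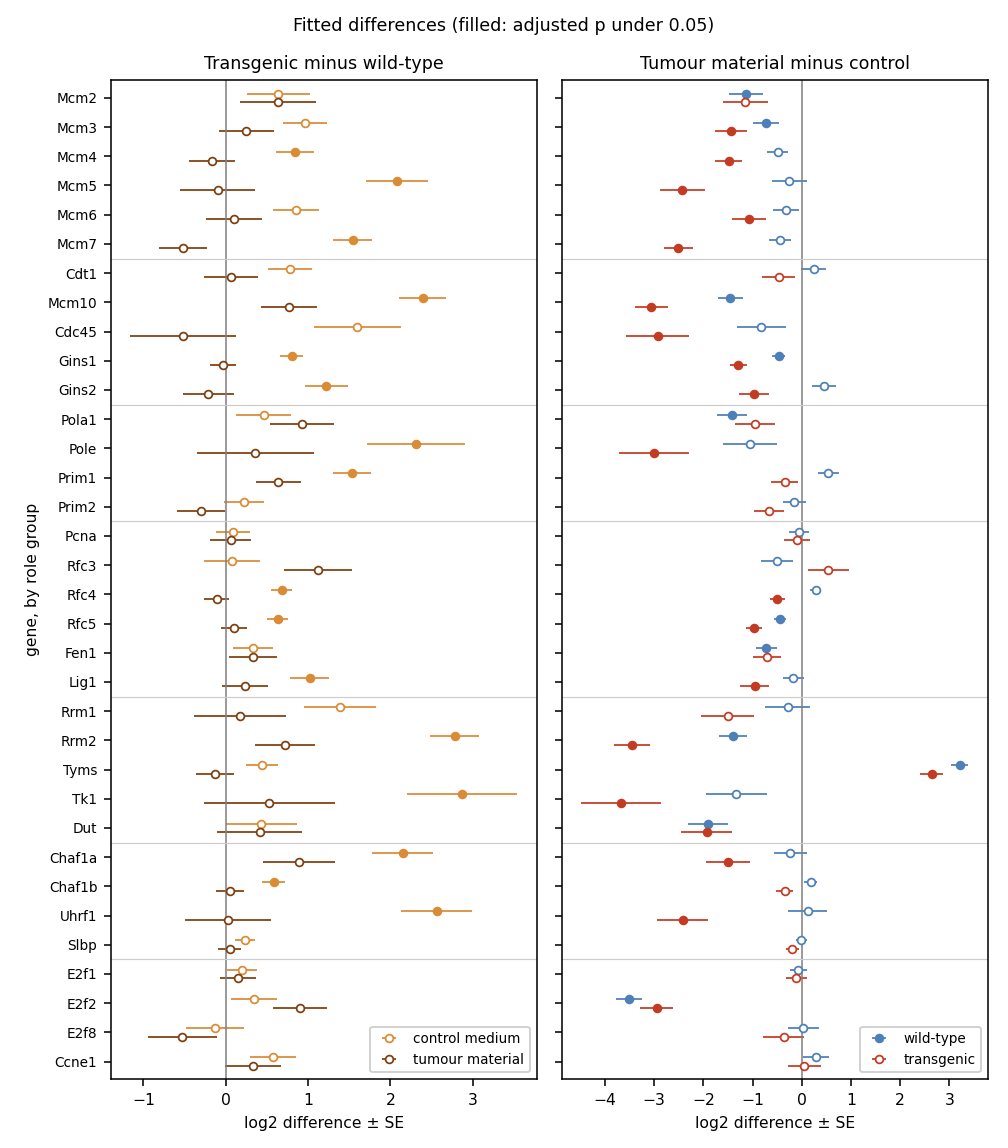
Fitted log2 differences with standard errors for the 34 genes tested, by role: transgenic minus wild-type in each medium (left) and tumour material minus control in each genotype (right), filled where the adjusted p was under 0.05. In control medium 16 points on the left are filled, all above 0, and with tumour material none is; on the right 10 wild-type and 19 transgenic falls are filled, with Tyms the only rise.

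The test of the difference between both responses asks whether tumour material changed a gene more in transgenic than in wild-type cells. It called 2 of the 38 lower and 0 higher, where 0.928% of all genes were called lower and 1.02% higher. At an unadjusted p under 0.05, 16 of the 38 were lower and 0 higher, where 5.71% of all genes were lower and 6.77% higher. Mcm7 fell further in transgenic cells by 2.06 ± 0.37 (adjusted p = 0.0141) and Rrm2 by 2.06 ± 0.46 (adjusted p = 0.0451). The median difference was -0.74 over the genes tested, against 0.02 over all genes, and 30 of the 34 estimates were below 0. Neither call held whichever replicate was left out: Mcm7 was lost without wild-type tumour replicate 3, transgenic control replicate 3 or transgenic tumour replicate 3 (adjusted p up to 0.13), and Rrm2 without 8 of the 11 (adjusted p up to 0.328). Without transgenic control replicate 1, 16 of the 38 were called lower, where 3.52% of all genes were. Among those 16 were Mcm3, Mcm4, Mcm5, Mcm6 and Mcm7 of the helicase.

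Other genes of replication were also higher in transgenic control. Of 46 genes such as origin recognition, GINS, polymerase and RPA subunits that are not among the 38, 37 were tested. In transgenic control 12 were called higher and 0 lower, where 3.62% and 5.33% of all genes were, and the median was 0.31. Atad5, which unloads the clamp, read -1.02, -0.91 and -0.85 in wild-type control and -0.01, 0.20 and 0.24 in transgenic control (1.04 ± 0.11, adjusted p = 0.000227). Asf1b, a histone chaperone of S phase, differed by 1.34 ± 0.15 (adjusted p = 0.000263), Rpa2, a subunit of the single-strand binding protein, by 1.69 ± 0.21 (adjusted p = 0.000595) and Chtf18, of an alternative clamp loader, by 2.11 ± 0.29 (adjusted p = 0.00102). All 4 calls held whichever replicate was left out. Gmnn, the inhibitor of Cdt1, differed by 0.37 ± 0.30 (adjusted p = 0.493). In wild-type cells with tumour material 8 of the 37 rose and 10 fell, where 23.2% of all genes rose and 16.8% fell. In transgenic cells 2 rose and 10 fell, where 15.2% and 10.2% did. Between genotypes with tumour material, 1 of the 37 was called higher and 1 lower, where 2.01% and 2.57% of all genes were. Of 22 further genes of nucleotide synthesis, 16 were tested and 3 were called higher in transgenic control, where 3.62% of all genes were. Among the 3 were Dtymk, which phosphorylates dTMP, at 0.60 ± 0.11 (adjusted p = 0.00553, lost without 1 of the 11 replicates), and Tk2, the mitochondrial thymidine kinase, at 0.78 ± 0.19 (adjusted p = 0.0273, lost without 6).

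Of 18 further E2F and RB family genes and partners, 17 were tested and 4 were called higher in transgenic control: Mybl2, Ccna2, Rbl1 and Lin37. Of all genes tested, 3.62% were called higher there. Ccna2, cyclin A2, the cyclin of late S phase, read -0.53, 0.08 and -0.29 in wild-type control, -1.68, -2.68 and -1.68 in wild-type tumour, 1.86, 3.53 and 3.15 in transgenic control, and -1.53 and -1.78 in transgenic tumour. Transgenic control was again apart, and the tumour groups overlapped. The differences of Ccna2 were 3.08 ± 0.35 in control medium (adjusted p = 0.000363) and -4.75 ± 0.43 for tumour material in transgenic cells (adjusted p = 1.15e-05). Mybl2, an activator of late cell-cycle genes, was 1.92 ± 0.20 higher in transgenic control (adjusted p = 0.000232). Its wild-type response to tumour material was a rise of 1.17 ± 0.19 (adjusted p = 0.00045) and its transgenic response a fall (-1.79 ± 0.25, adjusted p = 0.000275). Cdk2, the kinase partner of cyclins E and A, and Rb1, the pocket protein that restrains E2F, differed by 0.00 ± 0.16 and 0.06 ± 0.10 in control medium (adjusted p = 0.989 and 0.771).

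Mitosis genes, which act after S phase, were higher in transgenic control and lower with tumour material. Of 26, 18 were tested and 13 were called higher in transgenic control, where 3.62% of all genes were, and the median was 1.91. With tumour material 13 fell in wild-type cells and all 18 tested fell in transgenic cells, with medians of -1.25 and -2.99. Of all genes tested, 16.8% were called lower in wild-type and 10.2% in transgenic cells. Mki67, the proliferation antigen, read 1.53, 1.25 and 1.43 in wild-type control, 2.90, 3.28 and 3.24 in transgenic control, 1.13, 1.16 and 1.29 in wild-type tumour, and 0.94 and 1.42 in transgenic tumour. Its genotype difference was 1.73 ± 0.16 (adjusted p = 8.37e-05). Birc5 (survivin) was 2.59 ± 0.26 higher (adjusted p = 0.000172), Ccnb2 (cyclin B2) 2.51 ± 0.28 (adjusted p = 0.000302) and Plk1, a mitotic kinase, 2.27 ± 0.27 (adjusted p = 0.000437). All 4 calls held whichever replicate was left out. Top2a, the topoisomerase that untangles chromosomes, differed by 2.08 ± 0.56 (adjusted p = 0.0393), lost without 8 of the 11 replicates. The summed signal of the mitosis genes was 22.3 to 24.8 times the 75th percentile of the array in wild-type control, 52.1, 120 and 129 in transgenic control with replicate 1 lowest, and 12.7 to 15.0 in the tumour groups.

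CDK inhibitors and D-type cyclins, which sit upstream of RB, split. Of 12, 10 were tested and 2 were called higher in transgenic control, Cdkn2c and Ccnd1, where 3.62% of all genes were. Without transgenic control replicate 1 that count was 5, where 7.46% of all genes were called higher. Ccnd1, cyclin D1, read 3.61, 4.56 and 3.81 in wild-type control and 4.36, 7.45 and 7.11 in transgenic control, with replicate 1 inside the wild-type range (2.33 ± 0.57, adjusted p = 0.0271, lost without 6 of the 11 replicates). Cdkn2c, the p18 inhibitor of CDK4 and CDK6, was 1.38 ± 0.14 higher in transgenic control (adjusted p = 0.000227). Cdkn1a, the p21 inhibitor, read 4.04, 4.04 and 3.92 in wild-type control and 6.12, 6.02 and 6.00 in wild-type tumour, and 4.46, 3.07 and 3.17 in transgenic control and 4.76 and 4.80 in transgenic tumour. It rose with tumour material by 2.06 ± 0.23 in wild-type (adjusted p = 2.98e-05) and by 1.39 ± 0.30 in transgenic cells (adjusted p = 0.00562), and in transgenic control replicate 1 was its highest. Between genotypes Cdkn1a differed by -0.39 ± 0.25 in control medium (adjusted p = 0.364) and by -1.05 ± 0.30 with tumour material (adjusted p = 0.0769), and without that replicate by -0.84 ± 0.10 (adjusted p = 0.000163) and -1.19 ± 0.10 (adjusted p = 3.35e-05), called lower in both. Cdkn1c, the p57 inhibitor, was at least 93.3-fold lower with tumour material in wild-type cells (adjusted p = 1.64e-06) and fell by 4.54 ± 0.70 in transgenic cells (adjusted p = 0.000611). Cdkn1b, the p27 inhibitor, fell by 1.33 ± 0.27 and 1.27 ± 0.35 (adjusted p = 0.00186 and 0.0185), and Cdkn2d, the p19 inhibitor, was 0.71 ± 0.14 higher in transgenic tumour than in wild-type tumour (adjusted p = 0.0107), as was Cdkn1c, by at least 7.56-fold (adjusted p = 0.0193).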

How the data were processed

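The 38 genes and the companion lists were chosen with earlier results of these data known. Per the submitters' processing notes, the arrays were read with Agilent Feature Extraction 10.7.3.1. The deposited intensity used is its processed signal, background-subtracted and spatially corrected per the file headers, from 62976 spots per array of total RNA labelled with Cy3. Control spots and outlier spots were left out, spots of a probe were averaged, and each array's 75th percentile of the log2 signal was subtracted. The authors' deposited log2 values, whose scale and centring are unstated, correlated with the scanner signal at 0.9987 or more and served as an alternative (column medians about 2.84). Probes were named through RefSeq accessions; 28331 of 55681 probes had 1 symbol and 27350 had none, and of several probes of a gene the one with the highest mean signal was used. One limma 3.58.1 model (R 4.3.3) over 14 arrays had group and slide as terms and the replicate as a block for repeat arrays (correlation 0.0616). Benjamini-Hochberg adjustment ran over 15842 genes. On simulated data for the transgene effect in control medium (15842 genes), recovery was 19.7% for genes changed 1.5-fold, 69.3% at 2-fold and 94.7% at 4-fold, and 5.57% of calls were false. The simulated noise was independent and of equal spread on all arrays, with no slide effect, repeat-array correlation or outlying replicate. These rates therefore need not hold for the real arrays. The number of arrays limits the precision. Named with full values were the 2 genes of each role with the smallest adjusted p in control medium and genes whose call differed from most of their role, plus up to 4 genes of each companion list by that p and a set of regulators whatever their values. Alternatives were other scaling, background correction, filters, slide handling, the replicate block and leaving out each replicate. The normexp alternative used the median spot signal, since the files used hold no mean signal column. One gene of a companion list is not reported here.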

Additional observations from a re-analysis of the deposited data

Results flagged for a closer look

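The response to tumour material differed between genotypes, by the interaction term of the limma model with adjusted p under 0.05, in 11 of the genes named. All 11 log2 differences of the responses were negative: Mcm7 at -2.06 and Rrm2 at -2.06 among the replication genes, and Chtf18 at -2.21, Atad5 at -1.09 and Asf1b at -1.39 among further replication genes. Mybl2 stood at -2.96 and Ccna2 at -3.07. Of the mitosis genes, Mki67 stood at -1.73, Ccnb2 at -3.14, Plk1 at -1.98 and Birc5 at -3.16. Apart from Mcm7 and Rrm2, these genes were named for a small adjusted p between genotypes in control medium. That difference enters the interaction with its sign reversed. Genes picked as high in transgenic control therefore lean to negative values, and the shared sign adds no support. No cause was tested. No group had 4 or more replicates, so no replicate was tested as an outlier.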

How the results depend on the processing

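Few replicates, repeat arrays and 2 slides limit these counts, and folds against a group below background are bounds on group means. Of the 38 genes, the number called higher in transgenic control was 16 in the model reported, 8 on slide 1 alone, 0 on slide 2 alone (median 1.28), 10 with repeat arrays left out, 5 with only the groups compared and 5 to 22 leaving out 1 replicate (medians 0.56 to 1.21). Without the arrays in slide column 4, which left transgenic control replicate 3 alone in its group, the median there was 1.16. With tumour material the genotypes differed in 4 genes without column 4 and in 7 with only the groups compared, and the median was -0.22 with repeat arrays left out; leaving out 1 replicate gave 0 to 5 genes and medians of 0.05 to 0.29. In wild-type cells the genes raised by tumour material numbered 5 without column 4, 5 with only the groups compared and 5 with the replicate block within genotype, the genes lowered numbered 2 on slide 2 alone, and leaving out 1 replicate gave 1 to 5 raised, 6 to 15 lowered and medians of -0.44 to -0.23. In transgenic cells 9 fell with only the groups compared (median -1.39), and medians were -1.39 on slide 2 alone, -1.44 with repeat arrays left out, -1.44 without column 4 and -1.40 with the replicate block within genotype; leaving out 1 replicate gave 9 to 26 genes and medians of -1.31 to -0.83. The difference between responses was called lower in 1 gene when the percentile was taken over detected probes, in 1 without the filter, in 1 with arrays averaged, in 0 on slide 2 alone (median -1.06), in 0 with repeat arrays left out, in 13 without column 4, and in 16 (1 higher, median -0.99) with the replicate block within genotype; leaving out 1 replicate gave 0 to 16 and medians of -0.93 to -0.54. Same-numbered samples of different groups had residual correlations of -0.484 to 0.157, so the numbers were not taken to pair samples, and the replicate block by number left 16 genes higher in transgenic control. E2f8 turned from -0.13 to 0.51 (normexp) and 0.77 (without column 4). The cause of these shifts was not tested, and some settings also leave fewer arrays. Apart from the fit without transgenic control replicate 1, the share of all genes called under each setting is not given here. A changed count therefore need not be particular to these genes.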
